A study of Mus musculus with 12 samples.

Results

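Mast cell genes were followed in whole ovaries of E16.5 mouse embryos labelled as Fmr1 knockout or wild type. The genes were 7 of the 55416 in the count files' annotation, taken by Ensembl identifier and kept only where the chromosome matched: Cma1, Mcpt4, Cpa3, Tpsb2, Tpsab1, Hdc and Ms4a2. All 7 met that rule. Cma1 was selected on its input RNA counts, lower in Fmr1 knockout than in wild-type ovaries, so its difference between the genotypes is given as a description, without a test. The other 6 were named as mast cell genes, with earlier results of these data known, to ask whether the fall of Cma1 was shared.

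Fmr1 knockout (KO) and wild-type (WT) ovaries each gave 3 input libraries of total RNA and 3 libraries of RNA pulled down with antibody to FMRP (RIP). Fmr1 encodes FMRP, a protein that binds messenger RNA. Each library came from 5 pairs of ovaries pooled. The strain label of every sample, WT included, is B6.129P2-Fmr1tm1Cgr/J, whose targeted Fmr1 allele is not restricted to a cell type. WT input ovaries came from littermates, and the labels do not say whether KO ovaries were homozygous. The labels call the samples biological replicates.

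Mast cells are tissue-resident cells of the blood lineage that store ready-made mediators in secretory granules. The granules hold chymases, tryptases and carboxypeptidase A3, packed with histamine on the proteoglycan serglycin. Their surface carries the high-affinity receptor for IgE, and crosslinking of that receptor releases the granule contents. Mast cell precursors arrive in tissues through the blood and fill their granules with proteases as they mature.

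Input libraries held 18880238 to 25707718 counted reads, of which the 7 genes took 1479, 1616 and 1397 reads in KO and 2713, 2614 and 2189 reads in WT. Levels are in CPM, counts scaled to 1 common library total with TMM factors. Input libraries labelled KO averaged 101 ± 19.8 CPM of Fmr1, those labelled WT 213 ± 8.47 CPM (SD, n = 3 each). The ovary label was not checked against markers of germ and pregranulosa cells, because none of the 6 listed was paired with an identifier here.

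Promoter sequence is shown for the 3 genes with a RefSeq promoter whose KO input libraries all lay below the WT libraries. Tpsb2 and Tpsab1 also had every KO library below the WT libraries, but no promoter entry. Each window runs from 250 bases before the annotated start to 50 bases after it, 5′ to 3′ on the gene's strand. Capitals mark GATAA on either strand (TTATC where it lies on the other strand), the core letters that GATA factors bind. GATA factors include GATA2, which mast cells need to develop. The Cma1 window is chr14:55944626-55944925, the Mcpt4 window chr14:56062261-56062560 and the Cpa3 window chr3:20242132-20242431, all on the minus strand of GRCm38.p6.
Cma1: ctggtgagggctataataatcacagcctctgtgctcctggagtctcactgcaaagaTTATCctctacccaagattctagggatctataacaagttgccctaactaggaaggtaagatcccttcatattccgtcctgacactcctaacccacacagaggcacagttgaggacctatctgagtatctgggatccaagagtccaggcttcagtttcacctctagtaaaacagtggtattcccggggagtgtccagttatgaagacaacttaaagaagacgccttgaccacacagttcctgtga
Mcpt4: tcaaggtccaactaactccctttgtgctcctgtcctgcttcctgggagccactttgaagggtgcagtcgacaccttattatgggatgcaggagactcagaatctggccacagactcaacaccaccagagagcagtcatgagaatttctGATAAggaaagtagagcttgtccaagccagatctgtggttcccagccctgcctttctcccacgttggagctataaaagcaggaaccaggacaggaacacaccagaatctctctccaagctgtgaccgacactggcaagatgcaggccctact
Cpa3: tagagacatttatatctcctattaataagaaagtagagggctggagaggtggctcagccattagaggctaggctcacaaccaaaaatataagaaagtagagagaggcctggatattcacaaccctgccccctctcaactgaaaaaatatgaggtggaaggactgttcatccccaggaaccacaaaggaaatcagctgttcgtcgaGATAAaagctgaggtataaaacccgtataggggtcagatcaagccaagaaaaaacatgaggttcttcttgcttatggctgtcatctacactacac

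GATAA was found once in each of these windows. The first capital letter lies at -194 in Cma1 (there as TTATC), -102 in Mcpt4 and -45 in Cpa3, counting the start as 0. Of 32851 RefSeq promoter windows of the same length, 25.4% held it. The Hdc window held none and the Ms4a2 window held 3. CANNTG, the letters of an E-box, was found in the Cma1, Cpa3 and Hdc windows and in 72.3% of all windows. TATAAA was found in the Mcpt4 window, at -32, and in the Cpa3 window, at -242 and -31, against 13.6% of all windows. Both strands were searched, and these motifs are descriptions of letters, not of bound sites. The windows shown were chosen on the KO and WT levels, and a link of the motifs with those levels was not tested.

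Cma1 encodes mast cell chymase 1, a serine protease of the granule (ENSMUSG00000022225, chromosome 14, 56178908 to 56182132, minus strand, 5 exon blocks, exonic length 1090 bp). Gene coordinates are those of the count files (Ensembl release 104, whose build the headers do not name) and differ from the GRCm38.p6 positions of the promoters. Its level was 18.96, 16.47 and 19.24 CPM in KO pools and 32.27, 33.47 and 29.40 CPM in WT pools. The highest KO library lay 10.2 CPM below the lowest WT library, and the KO mean was 57.5% of the WT mean (log2 change -0.80, SE 0.11). This gene was picked for that difference. Less Cma1 RNA in a whole ovary can come from fewer mast cells or from less RNA per cell, and these cannot be told apart here, for Cma1 or any other member.

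Mcpt4 encodes a chymotrypsin-like chymase of connective tissue mast cells (ENSMUSG00000061068, chromosome 14, 56297086 to 56299770, exonic length 1108 bp). Its level was 2.55, 1.83 and 2.49 CPM in KO and 3.16, 2.84 and 3.22 CPM in WT. The groups did not overlap, but the nearest libraries were 0.284 CPM apart and the test was not passed (log2 change -0.43, SE 0.26, adjusted p = 0.917). Input p-values come from the quasi-likelihood test of edgeR, adjusted by Benjamini-Hochberg over all 23698 tested genes.

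Between Cma1 and Mcpt4 lie 115.0 kb with 8 further annotated genes. Of these, 2 had enough reads to be tested and neither passed. The more abundant, ENSMUSG00000058581, averaged 13.5 CPM in KO pools and 12.5 CPM in WT pools (log2 change 0.11, SE 0.14, adjusted p = 0.977). The other, ENSMUSG00000022226, had 10, 7 and 7 reads in KO and 15, 27 and 8 reads in WT, with overlapping groups (log2 change -0.87, SE 0.51, adjusted p = 0.905). Mcpt9, a further protease gene of the cluster, had 1, 0 and 2 reads in KO and 4, 10 and 4 reads in WT, too few to test.

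Cpa3 encodes carboxypeptidase A3, which removes the last residue of peptides (ENSMUSG00000001865, chromosome 3, 20269784 to 20296345, 12 exon blocks, exonic length 1517 bp). Its level was 18.8, 17.8 and 23.0 CPM in KO pools and 30.6, 28.3 and 25.1 CPM in WT. The highest KO library was 2.13 CPM below the lowest WT library. The KO mean was 70.9% of the WT mean, and the gene did not pass over all genes (log2 change -0.50, SE 0.12, unadjusted p = 0.000597, adjusted p = 0.293).

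Tpsb2 encodes a tryptase, a trypsin-like protease that forms tetramers in the granule (ENSMUSG00000033825, chromosome 17, 25585279 to 25588072, exonic length 1594 bp). It had 19.5, 15.2 and 12.3 CPM in KO and 25.2, 27.0 and 26.0 CPM in WT. KO libraries were spread more widely than WT libraries and all lay below them. The KO mean was 60.1% of the WT mean (log2 change -0.73, SE 0.14, unadjusted p = 3.45e-05, adjusted p = 0.0725), close to the estimate for Cma1. By p-value Tpsb2 stood at rank 11 of all tested genes, next after the 10 that passed. Its call depended on the method, and it passed with DESeq2 (adjusted p = 0.000945) and with limma-voom (adjusted p = 0.0386).

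Tpsab1 is the neighbouring tryptase gene, 20.7 kb away with no annotated gene between (ENSMUSG00000024173, chromosome 17, 25562219 to 25564536, exonic length 2094 bp). The RefSeq table of the C57BL/6J reference lists it as a transcribed pseudogene. It had 17, 19 and 17 reads in KO and 31, 29 and 28 reads in WT. In CPM these were 0.886, 0.788 and 0.901 in KO and 1.22, 1.27 and 1.33 in WT. Every KO library was lower than every WT library, and the gene did not pass (log2 change -0.57, SE 0.35, adjusted p = 0.925). Tryptase genes are similar in sequence, so reads placed at one may come from the other, as may reads of the chymase cluster on chromosome 14.

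Hdc encodes histidine decarboxylase, the enzyme that makes histamine (ENSMUSG00000027360, chromosome 2, 126435587 to 126461219, exonic length 6389 bp). It is also used by cells other than mast cells. Its level was 15.1, 14.5 and 15.8 CPM in KO pools and 14.1, 20.7 and 18.2 CPM in WT. The groups overlapped through WT replicate 1, the lowest of all 6 libraries (log2 change -0.22, SE 0.14, adjusted p = 0.932).

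Ms4a2 encodes the beta chain of the high-affinity IgE receptor (ENSMUSG00000024680, chromosome 19, 11592887 to 11601083, exonic length 2813 bp). It was on average the least abundant member, with 24, 12 and 6 reads in KO and 13, 12 and 11 reads in WT. The 3 WT libraries were close together at 0.513 to 0.524 CPM, while KO replicate 1 had 1.25 CPM and KO replicate 3 had 0.318 CPM. The KO libraries lay on both sides of the WT libraries (log2 change 0.39, SE 0.50, adjusted p = 0.977). Without KO replicate 1 the estimate turned to -0.32.

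**Figure D1:**
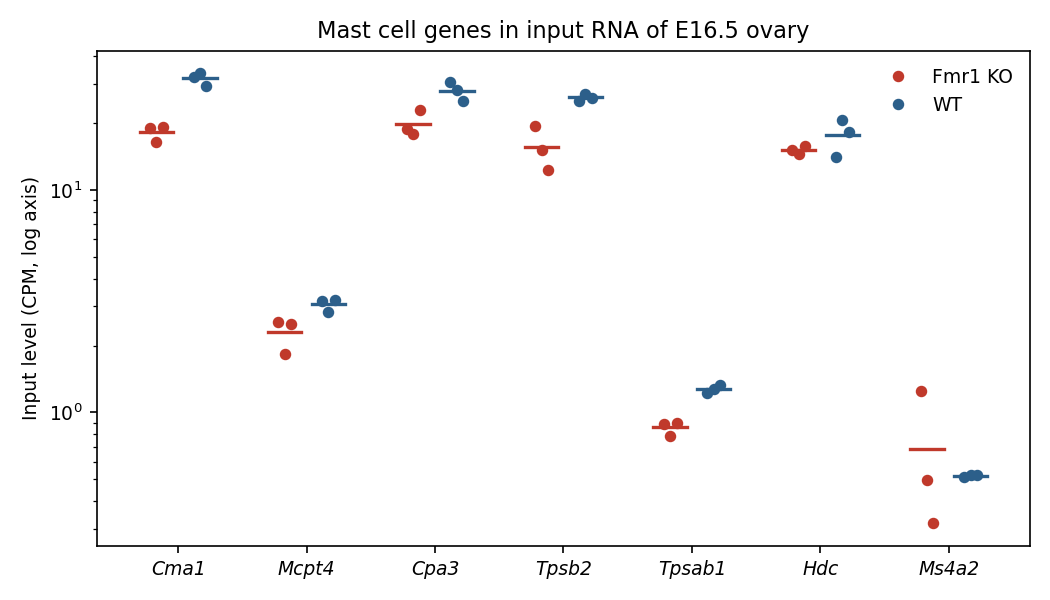
Input level of each mast cell gene in CPM on a log axis, KO (red, left) and WT (blue, right), with 1 point per library and a line at the mean of 3. Cma1, Mcpt4, Cpa3, Tpsb2 and Tpsab1 have every KO point below every WT point, while Hdc and Ms4a2 overlap.

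Of the 6 genes besides Cma1, 5 had an estimate below 0 and 0 passed as lower in KO (edgeR). Among all 23698 tested genes, 0.0422% passed as lower, and 50.5% had an estimate below 0. At an unadjusted p under 0.05, 2 of the 6 were lower, Cpa3 and Tpsb2, against 3.00% of all genes. KO and WT libraries did not overlap, with KO lower, in 4 of the 6, against 5.69% of all genes. The median log2 change of the 6 was -0.46, beside -0.002 for all tested genes. All 6 were measured in the same 6 libraries, so their counts are not separate observations. They were also named with earlier results of these data known, so these shares are descriptions and no test.

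DESeq2 called Tpsb2 as the only one of the 6, where 0.101% of tested genes passed as lower. DESeq2 gave no adjusted p for Ms4a2, so it could not call that gene. Limma-voom likewise called only Tpsb2, with 0.0549% of genes lower. With no filter on low counts, Tpsb2 and Cpa3 passed (adjusted p = 8.42e-06 and 0.0113), where 0.131% of 49570 genes were lower. Leaving out KO replicate 1, the KO library with the most Tpsb2, also brought Tpsb2 past the threshold (log2 change -0.92, adjusted p = 0.00392), with 0.0733% of genes lower. None of the 6 passed with any other library left out.

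**Figure D2:**
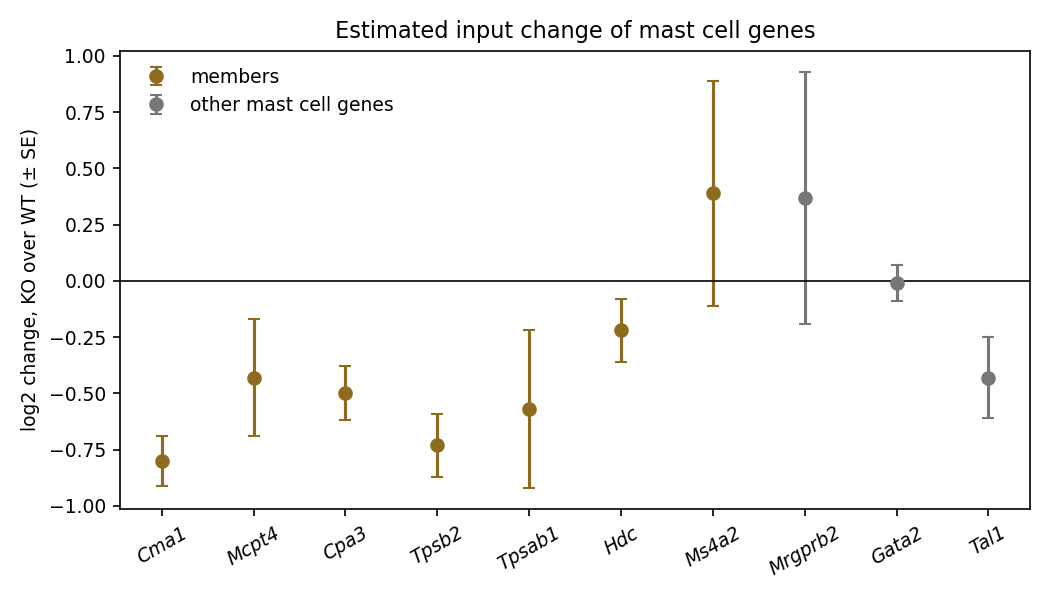
Estimated log2 change of input RNA, KO over WT, with bars of 1 SE, for the 7 mast cell genes (brown) and 3 other mast cell genes with enough reads (grey). Cma1 and Tpsb2 have the lowest estimates, and Hdc lies nearer to 0 at -0.22. Gata2 lies nearest to 0, and the bars of Gata2, Ms4a2 and Mrgprb2 span 0.

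**Figure D3:**
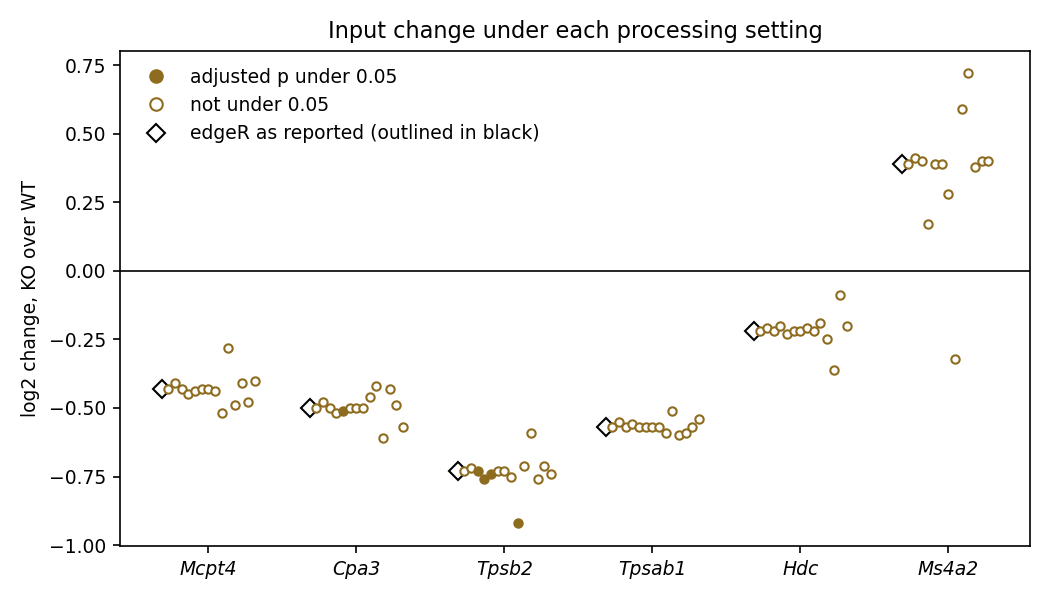
Estimated log2 change, KO over WT, of the 6 genes besides Cma1 under the edgeR fit (diamond) and each processing alternative (circles, filled where the adjusted p was under 0.05). Filled points appear for Tpsb2 and, once, for Cpa3, and the Ms4a2 estimate changes sign without KO replicate 1.

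Summed over the 7 genes, the level was 77.0, 67.1 and 74.0 CPM in KO pools and 107.04, 114.06 and 103.81 CPM in WT pools. The 6 genes without Cma1 summed to 54.5 ± 3.76 CPM in KO pools and 76.6 ± 3.47 CPM in WT pools (SD, n = 3 each), which put KO at 71.1% of WT. The protease genes besides Cma1 were Mcpt4, Cpa3, Tpsb2 and Tpsab1. They summed to 41.7, 35.6 and 38.7 CPM in KO and 60.2, 59.4 and 55.7 CPM in WT. For these genes KO was at 66.2% of WT, in a sum made up mostly of Cpa3 and Tpsb2. Each of them had every KO library below every WT library, so their sum had to as well. The sum of all 7 includes Cma1, which was picked for being low in KO.

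Levels of different genes were set side by side per kilobase of exon. In KO, Cma1 came first at 16.7 ± 1.40 CPM per kb, before Cpa3 at 13.1 ± 1.83, Tpsb2 at 9.83 ± 2.29, Hdc at 2.37 ± 0.103, Mcpt4 at 2.07 ± 0.364, Tpsab1 at 0.410 ± 0.0292 and Ms4a2 at 0.245 ± 0.176. In WT the order was Cma1 at 29.1 ± 1.92 CPM per kb, Cpa3 at 18.5 ± 1.80, Tpsb2 at 16.4 ± 0.566, Mcpt4 at 2.77 ± 0.187, Hdc at 2.76 ± 0.522, Tpsab1 at 0.608 ± 0.0252 and Ms4a2 at 0.185 ± 0.00203 (SD, n = 3 each). Mcpt4 and Hdc overlapped in both genotypes. Within a library, Hdc was the higher in every KO library, and their order differed between WT libraries. Cpa3 and Tpsb2 overlapped in both as well, with Cpa3 the higher within every library. Cma1 overlapped Cpa3 in KO but not in WT, and was the higher within every KO library. Tpsab1 and Ms4a2 overlapped in KO only.

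Within a library, the ratio of Cma1 to another member does not depend on how the library was scaled. Cma1 over Cpa3 was 1.01, 0.925 and 0.836 in KO and 1.06, 1.18 and 1.17 in WT. Over Hdc it was 1.26, 1.14 and 1.22 in KO and 2.29, 1.62 and 1.61 in WT. Over Mcpt4 it was 7.43, 9.02 and 7.72 in KO and 10.2, 11.8 and 9.12 in WT. Over Tpsab1 it was 21.4, 20.9 and 21.4 in KO and 26.4, 26.4 and 22.1 in WT. The ratios to these genes did not overlap between genotypes. Cma1 was picked for being low in KO, so its ratio to a gene with little change would tend to separate too. The share of all tested genes for which this holds was not computed. Over Tpsb2 it was 0.971, 1.08 and 1.56 in KO and 1.28, 1.24 and 1.13 in WT. Over Ms4a2 it was 15.2, 33.1 and 60.5 in KO and 62.9, 63.9 and 56.4 in WT, and for these last 2 genes the groups overlapped. Cma1 made up 25.1% ± 0.806 of the summed level of the 7 genes in KO pools and 29.3% ± 0.916 in WT pools (SD, n = 3 each). Since Cma1 was picked for being low in KO, these ratios are descriptions and carry no test.

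**Figure D4:**
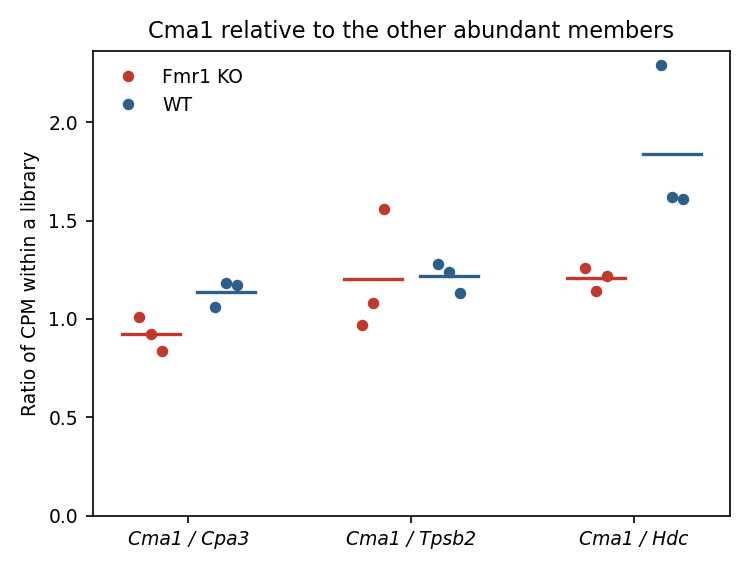
Ratio of the Cma1 level to that of Cpa3, Tpsb2 and Hdc within each input library, KO (red, left) and WT (blue, right), with a line at the mean of 3. The ratios to Cpa3 and Hdc are lower in every KO library, and the ratios to Tpsb2 overlap.

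Whether the members rose and fell together among pools of 1 genotype was described with the genotype means subtracted, which leaves out the contrast that picked Cma1. Over 6 input libraries and 21 pairs of members, Pearson correlations of log2 CPM ran from -0.60 to 0.98, with a median of 0.11. Cma1 correlated at 0.74 with Cpa3, higher than with 90.3% of all tested genes, at 0.55 with Mcpt4 (81.2%) and at 0.0 with Tpsb2 (51.6%). With Tpsab1 it correlated at 0.44 (75.4%), with Hdc at 0.20 (63.0%) and with Ms4a2 at 0.11 (57.4%). Cpa3 and Tpsb2 correlated at -0.60. The highest pair, Tpsb2 and Ms4a2 at 0.98, has KO replicate 1 as the highest KO library and KO replicate 3 as the lowest in both genes. All genes share the same 6 libraries, so these values describe these libraries only. By the same measure the genes most like the mean of the members were ENSMUSG00000026199 and ENSMUSG00000031818, both at 0.999. With 23698 genes and 6 libraries, such values carry no statement on function.

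Other mast cell genes were taken from a list of 29, of which 5 could be paired with an identifier. None of the 3 that had enough reads passed (edgeR). Gata2, a transcription factor of mast cell and blood precursors that other cells also use, averaged 82.5 ± 8.0 CPM in KO pools and 83.0 ± 2.88 CPM in WT pools (log2 change -0.01, SE 0.08, adjusted p = 0.995). Tal1, a factor of blood and endothelial cells, averaged 19.7 ± 4.05 CPM in KO pools and 26.6 ± 6.65 CPM in WT pools. Its groups overlapped (log2 change -0.43, SE 0.18, unadjusted p = 0.0385, adjusted p = 0.810, edgeR). Mrgprb2, a receptor through which basic compounds activate mouse mast cells, had 11, 5 and 10 reads in KO and 12, 6 and 5 reads in WT (adjusted p = 0.979). Mrgprb1 had 7, 10 and 9 reads in KO and 6, 9 and 4 reads in WT and was not tested. Mcpt9 was not tested either, with 1, 0 and 2 reads in KO and 4, 10 and 4 reads in WT. Every KO library of Mcpt9 lay below every WT library. All SDs are over 3 libraries.

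Markers of other blood cells were scarce among the paired genes. Fcgr1, an Fc receptor of macrophages, averaged 3.20 ± 0.470 CPM in KO pools and 3.20 ± 0.823 CPM in WT pools (SD, n = 3 each; adjusted p = 1.00, edgeR). Cd3g, a chain of the T cell receptor complex, had 9, 15 and 10 reads in KO and 11, 9 and 10 reads in WT. These were 1 of 9 macrophage markers and 1 of 5 markers of T and NK cells. The 3 basophil markers, a cell type that shares Hdc and Ms4a2 with mast cells, were not used here.

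The RIP table gives fold enrichments, a ratio made by the authors whose denominator is not given in the sources used here. Cpa3 and Tpsb2 were the members with rows in it, 3 rows of 14447, and the read depth behind the values is unknown. Cpa3 had fold enrichments of 1.25, 1.64 and 1.05 in KO and 1.78, 2.65 and 1.31 in WT. KO was the lower on average, but KO replicate 2 lay above WT replicate 3 (log2 difference on value + 1, KO minus WT, -0.32, SE 0.17, adjusted p = 0.659, limma).

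Tpsb2 had a first row of 1.61, 2.00 and 1.51 in KO and 1.59, 1.13 and 1.55 in WT (log2 difference 0.16, SE 0.11, adjusted p = 0.729). Its second row had 1.25, 1.94 and 1.71 in KO and 1.43, 1.13 and 1.58 in WT (log2 difference 0.14, SE 0.12, adjusted p = 0.780). Both rows averaged higher in KO, with overlapping groups, the opposite of the Cpa3 row. The KO and WT means of the 3 rows ran from 1.31 to 1.91, beside a median row mean of 1.77 over the table. Of all 14365 rows compared by limma, 0 passed (0%), with 0.375 as the lowest adjusted p. A difference in enrichment of these rows between KO and WT was not detected.

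**Figure D5:**
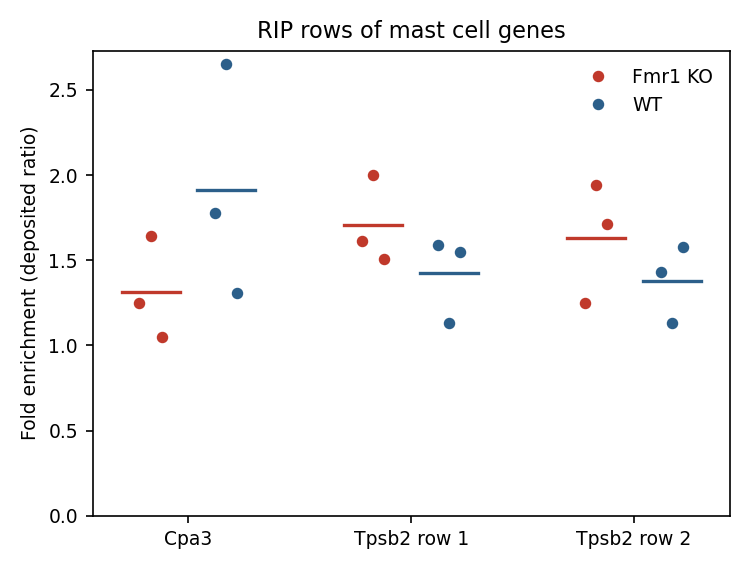
Deposited fold enrichment of the 3 RIP rows of mast cell genes in each RIP library, KO (red, left) and WT (blue, right), with a line at the mean of 3. The Cpa3 row averages lower in KO and both Tpsb2 rows average higher, and all 3 overlap between genotypes.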

How the data were processed

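Per the file headers, the deposited input counts are raw: the authors counted reads per gene over exons with featureCounts 1.6.3 and Ensembl release 104, setting no option for strand, read pairs or multiply placed reads. Tools named without a role in the submitters' processing notes are FastQC, DESeq2 1.26.0, MACS2 2.1.0 and BWA 0.7.12, and GRCm38 is the build named. The RIP table holds a fold enrichment, a linear ratio, deposited by the authors for each library. No member shared exonic bases with another gene.

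The members and lists were chosen with earlier results of these data known. Member names come with the identifiers of the selection rule, since the files do not pair names and identifiers. Each member's symbol lies on the same chromosome in the RefSeq table (GRCm38.p6), which holds 0 Ensembl identifiers. Listed genes were paired by chromosome and equal span, with at least 3 neighbouring pairs within 2 Mb shifted by the same distance. In this way 7 of 62 were paired, and the rest were not analysed here. The same route gave Cma1 and Tpsab1 their rule names. Fmr1 was taken by its Ensembl identifier. All members were named, and from each list all paired genes.

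Counts were compared, KO over WT, in edgeR 4.0.16 under R 4.3.3 with TMM, filterByExpr, a robust quasi-likelihood fit and a threshold of 0.05. All 7 members passed the filter. SEs follow from the estimate and its F statistic (absolute estimate over root F). RIP ratios were compared with limma 3.58.1, KO minus WT, on log2(value + 1) centred on each column's median, for rows with a mean of at least 1, with a trended eBayes step. That scale understates changes of low values. Correlations used log2 CPM with a prior count of 2. P-values set the difference between KO and WT against the spread between pools, moderated over all genes or rows. Alternatives were DESeq2 1.42.0, limma-voom, other scalings and filters, the replicate block and each library left out. Both fits were tested on simulated data. With edgeR, 24 of 50 genes changed 1.5-fold in the simulation were recovered, as were 38 of 50 changed 2-fold. Changes of these sizes can therefore be missed.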

Additional observations from a re-analysis of the deposited data

How the results depend on the processing

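The count of 10 input genes called became 41 with DESeq2, 113 with no filter on low counts, 20 with the replicate block, and between 5 and 37 with 1 library left out (37 without KO replicate 1, 5 without KO replicate 2, 28 without WT replicate 2). With Cma1 left aside, the count of members called, 0 with edgeR, was 1 with DESeq2 and with limma-voom, 2 with no filter, and 0 to 1 with a library left out, the 1 being Tpsb2 without KO replicate 1. With no filter on low values 1 RIP row was called in place of 0, and it was no member. The Ms4a2 estimate of 0.39 reversed to -0.32 without KO replicate 1 and was 0.72 without KO replicate 3, the ends of its range. The cause of these changes was not tested. Replicate numbers gave no pairing: same-numbered KO and WT input libraries deviated with correlations of -0.071, -0.034 and -0.044, and RIP libraries with -0.60, -0.34 and -0.22. With the replicate block none of the 6 genes other than Cma1 was called, the Tpsb2 change was -0.75 (adjusted p = 0.101), and no RIP row was called. Over 14 alternatives the log2 change lay between -0.85 and -0.73 for Cma1, -0.92 and -0.59 for Tpsb2, -0.61 and -0.42 for Cpa3, -0.52 and -0.28 for Mcpt4, -0.60 and -0.51 for Tpsab1, and -0.36 and -0.09 for Hdc. The summed level of the 7 genes in KO was 67.1% of WT, a value partly set by the choice of Cma1, and 71.1% without Cma1. A filter of 1 CPM in 3 libraries left Ms4a2 untested. Ms4a2, Tpsab1 and the KO level of Mcpt4 rest on 6 to 49 reads a library.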
